A study of Mus musculus with 2 samples.

Results

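Small leucine-rich proteoglycans (SLRPs) are secreted proteins of the extracellular matrix, and 10 of their genes (Dcn, Lum, Bgn, Fmod, Ogn, Omd, Prelp, Aspn, Podn and Chad) were examined among 55536 annotated genes. The genes were taken by symbol from the annotation in the transcript tables, and all 10 had reads in both libraries. The samples were gastrocnemius muscles of 2 adult male B6CASTF1/J mice, for which the labels name no treatment. B6CASTF1/J is a hybrid that the labels describe as B6 crossed with Cast, and both mice were aged 8 to 10 months. There was 1 total RNA library per animal and 1 group, so no condition was compared. Replicate 1 is the animal numbered 2 in the labels and replicate 2 the animal numbered 4. The labels give both the same donor identifier, and p-values below measure only the difference between 2 libraries beyond counting error.

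SLRPs have a core of leucine-rich repeats, and many carry chains of chondroitin, dermatan or keratan sulfate. They bind collagen fibrils and are known for controlling fibril width and spacing. Several also bind growth factors of the transforming growth factor beta family. In muscle and tendon they are made mainly by fibroblasts and tendon cells rather than by muscle fibres. The family is divided by sequence into classes, and the 10 genes cover 5 of them.

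The libraries held 36792611 and 37752249 expected counts over annotated genes, the authors' estimate of reads per gene. The 10 genes together received 6039 counts in replicate 1 (0.0164% of the library) and 7469 in replicate 2 (0.0198%). The 5 muscle fibre markers (Ckm, Acta1, Myh4, Tnnt3, Pvalb) summed to 65721 and 70392.5 TPM, the deposited relative abundance of transcripts, corrected for their length, so the labelled tissue was present in both. In bulk tissue, fewer cells of a type and less RNA per cell cannot be told apart.

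The sequences before the starts of 6 of these genes are shown first, because they are the 3 members that neighbour each other on chromosome 13 (Aspn, Omd and Ogn) and the genes called different between the animals under every scaling (Fmod, Bgn and Chad). Each is the 250 bases before the RefSeq start on GRCm38.p6, 5′ to 3′ on the strand of the gene. Windows were found for 8 of the 10 genes, Dcn and Lum being the others. Capitals mark matches on either strand to the TATA box (searched as TATAAA), to the CCAAT box (searched by those 5 letters), to the GC box (searched as GGGCGG) or to the motif of TEAD factors (searched as GGAATG), and matches may overlap. Aspn lies at chr13:49544193-49544442, Omd at chr13:49582212-49582461, Ogn at chr13:49607765-49608014, Fmod at chr1:134037004-134037253, Bgn at chrX:73483351-73483600 and Chad at chr11:94564797-94565046, all on the plus strand.
Aspn: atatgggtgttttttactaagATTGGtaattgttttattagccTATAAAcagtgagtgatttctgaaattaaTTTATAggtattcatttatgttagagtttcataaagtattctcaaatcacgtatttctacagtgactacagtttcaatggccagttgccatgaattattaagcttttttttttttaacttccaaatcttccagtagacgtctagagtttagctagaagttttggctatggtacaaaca
Omd: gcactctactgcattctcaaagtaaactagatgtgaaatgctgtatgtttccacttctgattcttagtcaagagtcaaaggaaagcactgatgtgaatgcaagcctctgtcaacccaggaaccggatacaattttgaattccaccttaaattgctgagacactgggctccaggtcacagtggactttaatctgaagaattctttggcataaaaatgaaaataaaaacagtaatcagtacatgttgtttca
Ogn: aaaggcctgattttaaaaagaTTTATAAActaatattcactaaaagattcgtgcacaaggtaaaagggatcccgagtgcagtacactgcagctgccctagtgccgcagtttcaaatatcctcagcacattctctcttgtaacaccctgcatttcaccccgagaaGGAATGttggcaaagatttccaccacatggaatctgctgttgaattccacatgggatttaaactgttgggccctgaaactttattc
Fmod: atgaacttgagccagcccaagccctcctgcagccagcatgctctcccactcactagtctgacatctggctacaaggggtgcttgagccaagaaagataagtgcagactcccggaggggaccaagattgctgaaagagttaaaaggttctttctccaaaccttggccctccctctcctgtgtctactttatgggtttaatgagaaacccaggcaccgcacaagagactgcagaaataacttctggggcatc
Bgn: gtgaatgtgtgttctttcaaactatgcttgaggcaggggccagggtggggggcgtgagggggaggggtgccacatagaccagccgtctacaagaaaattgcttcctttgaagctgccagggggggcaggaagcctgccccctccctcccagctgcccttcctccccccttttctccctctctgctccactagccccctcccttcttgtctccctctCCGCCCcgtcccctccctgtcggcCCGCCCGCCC
Chad: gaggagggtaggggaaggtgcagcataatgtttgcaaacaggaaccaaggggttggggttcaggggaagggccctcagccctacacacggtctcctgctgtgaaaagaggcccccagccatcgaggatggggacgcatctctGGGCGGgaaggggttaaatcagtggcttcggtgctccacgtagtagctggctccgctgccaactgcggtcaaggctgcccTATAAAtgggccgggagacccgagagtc

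The chromosome 13 windows were poor in G and C, at 30% for Aspn, 38.4% for Omd and 42% for Ogn, against a median of 52.4% over 32851 windows of the same length. The Bgn window was rich in them at 64.4% and held 3 GC box matches within 34 bases of the start, the last 2 overlapping each other. Chad had a TATAAA beginning 28 bases before its start and a GC box 108 bases before it. Ogn had TATAAA matches on both strands that overlap, beginning 227 and 229 bases before the start, and a GGAATG at 86 bases. Aspn had a TATAAA match at 207 bases and, on the opposite strand, a TATAAA match at 178 bases and a CCAAT match at 229 bases. The Omd and Fmod windows held none of the 4 motifs. Over all windows, TATAAA was found in 12.4%, CCAAT in 33.8%, GGGCGG in 32.7% and GGAATG in 12.6%, so each motif was common among promoters.

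Decorin (Dcn), the class I proteoglycan that binds collagen I fibrils and also transforming growth factor beta and myostatin, was the most abundant SLRP. Dcn was measured at 70.5 TPM in replicate 1 and 75.6 in replicate 2, a mean of 73.1 ± 3.59 TPM (SD, n = 2). It held 58.9% ± 1.41 (SD, n = 2) of the 124 ± 9.07 TPM summed over the 10 genes. Among 22015 nuclear protein-coding genes its mean TPM ranked at 717. Its mean was 5.68 times that of Fmod, the next member in the order.

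Biglycan (Bgn), the class I relative of decorin encoded on the X chromosome, was measured at 9.35 and 14.02 TPM. Asporin (Aspn), a collagen-binding class I protein with an aspartate-rich end, was measured at 3.50 and 3.22 TPM. Class I as a whole held 70.9% ± 0.214 (SD, n = 2) of the summed TPM, nearly the same share in both animals.

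Fibromodulin (Fmod), a class II protein with sulfated tyrosines that binds collagen in tendon, was measured at 11.1 and 14.6 TPM. Prolargin (Prelp), which has a basic end that binds heparan sulfate, was measured at 5.42 and 5.80 TPM. Lumican (Lum), the keratan sulfate proteoglycan best known from the cornea, was measured at 4.70 and 4.09 TPM. Fibromodulin was thus above lumican in both animals, by 2.97 ± 0.848 times (SD, n = 2). Osteomodulin (Omd), known from bone matrix, was the lowest of the 10 at 0.39 and 0.32 TPM. Omd rested on 16 and 17 counts, and the deposited TPM intervals ran from 0.216 to 0.608 and from 0.192 to 0.528.

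Osteoglycin (Ogn), the class III member also called mimecan, was measured at 9.40 and 7.89 TPM. Podocan (Podn), the class V member, was measured at 2.13 and 2.86 TPM. Chondroadherin (Chad), a class IV protein known from cartilage that binds collagen and integrins, was measured at 1.23 and 2.20 TPM. In all, 9 of the 10 genes were at 1 TPM or more in both animals, with Omd the exception.

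The order of mean TPM was Dcn, Fmod, Bgn, Ogn, Prelp, Lum, Aspn, Podn, Chad, Omd. Of the 9 pairs next to each other in that order, 6 had ranges that did not meet over the 2 animals. The ranges overlapped for Fmod and Bgn, for Bgn and Ogn, and for Podn and Chad. These ranges span only the TPM values of the 2 animals. The deposited intervals also overlapped for Prelp and Lum in replicate 1, for Lum and Aspn in replicate 2, and for Aspn and Podn in both. In the second quantification all 10 genes kept their place in the order of mean TPM. There, Podn at 1.66 and 3.24 TPM lay on either side of Aspn at 2.97 and 2.56.

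**Figure D1:**
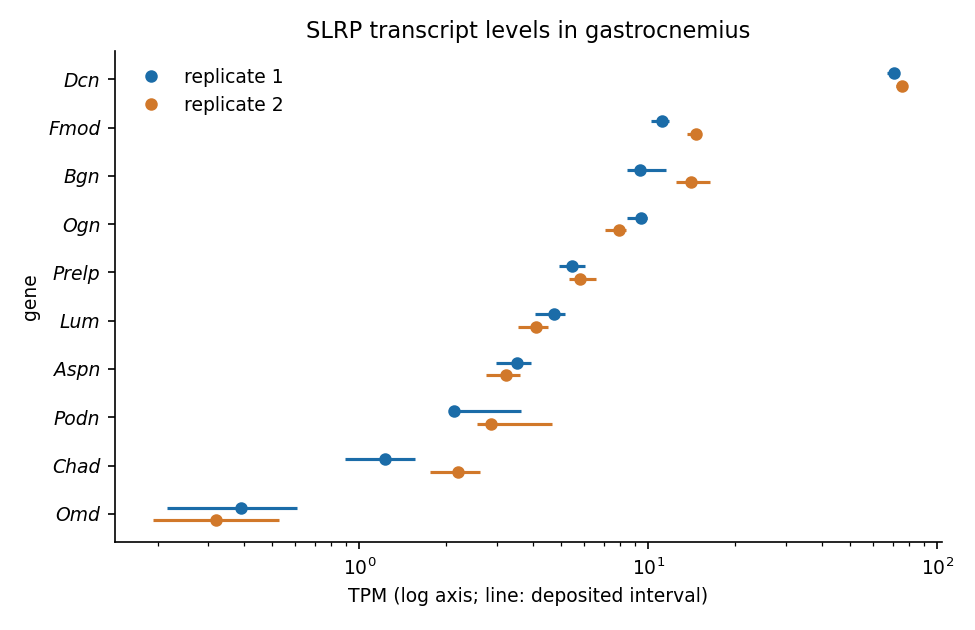
TPM of each SLRP gene (log axis) in replicate 1 and replicate 2, with lines for the deposited interval of each estimate and genes in order of mean TPM. Dcn stands apart at 70.5 and 75.6 TPM, most of the others lie between about 1 and 15, and Omd lies below 1 in both animals.

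Most of these genes lie in short runs of SLRP genes on the chromosome (mm10, GENCODE M21). On chromosome 10, Dcn (97479609-97518143), Lum (97565128-97572703), Kera and Epyc follow each other on the plus strand with no protein-coding gene between them. Each gene along this run was lower than the gene before it. Dcn was 16.8 ± 2.46 times Lum (SD, n = 2), and Lum was 5.84 ± 0.785 times keratocan (Kera, a corneal keratan sulfate proteoglycan), which had 0.89 and 0.64 TPM. Epiphycan (Epyc, known from cartilage) had 1 and 2 counts.

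On chromosome 13, Ecm2, Aspn (49544443-49567565), Omd (49582462-49592822) and Ogn (49608046-49624501) follow each other on the plus strand, with gaps of 11653, 14896 and 15223 bases. Omd was low while both of its neighbours were higher. Ogn was 24.4 ± 0.392 times Omd (SD, n = 2) and Aspn was 9.52 ± 0.769 times Omd. These SDs do not cover the counting error of Omd, which had only 16 and 17 counts. The deposited TPM intervals of Omd, 0.216 to 0.608 and 0.192 to 0.528, leave both ratios far less certain than the SDs show. Ecm2, a relative with leucine-rich repeats, was measured at 1.54 and 2.09 TPM. The gene Cenpp spans this run on the opposite strand, shares 7 exonic bases with Aspn and 0 with Omd or Ogn, and had 11 and 19 counts.

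On chromosome 1, Prelp (133910304-133921414, minus strand) and Fmod (134037254-134048277, plus strand) lie 115839 bases apart. Fmod was 2.29 ± 0.327 times Prelp (SD, n = 2), while opticin (Optc), 2304 bases from Prelp, had 0 and 1 counts. An antisense gene, Gm15851, shares 350 of the 3615 exonic bases of Prelp and had 0 counts in both libraries. The remaining genes lie outside these runs, with Bgn at 73483602-73495933 on chromosome X, Podn at 108014791-108096445 on chromosome 4 and Chad at 94565047-94569127 on chromosome 11. Podn overlaps Scp2 on the same strand, which had 2186 and 2257 counts. Chad overlaps Acsf2 on the opposite strand, which had 52 and 58 counts. Each of these overlaps shares 0 exonic bases with the SLRP gene.

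**Figure D2:**
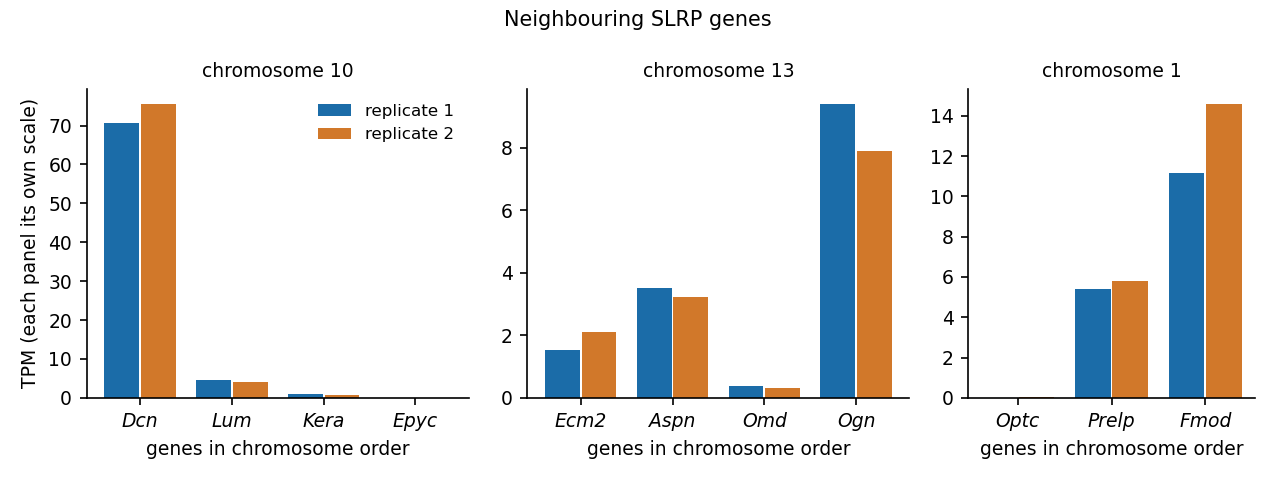
TPM of SLRP genes in chromosome order on chromosomes 10, 13 and 1, with a bar for each animal and a scale of its own for each panel. On chromosome 13, Omd at 0.39 and 0.32 TPM lies between Aspn at 3.50 and 3.22 and Ogn at 9.40 and 7.89.

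The 8 other SLRP genes of the mouse that were listed (Ecm2, Kera, Epyc, Optc, Nyx, Tsku, Podnl1, Chadl) summed to 3.43 ± 0.523 TPM (SD, n = 2), against 124 for the 10 described here. Podnl1 had 0 counts in both libraries, which allows up to 3 counts in each (0.0815 and 0.0795 CPM). Only 4 of the 8 reached a mean of 10 counts, and of these Ecm2 was called higher in replicate 2.

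The animals were compared gene by gene with an exact two-sided binomial test on counts with library sizes set by TMM (trimmed mean of M values), adjusted by Benjamini-Hochberg over the 14101 genes whose mean count was at least 10. A gene with an adjusted p under 0.05 is described as called. Of the 10 SLRP genes 5 were called, against 21.6% of all genes tested. Of these, 4 were higher in replicate 2 (10.7% of all genes tested) and 1 was higher in replicate 1 (10.8%). The test measures counting error in 2 libraries, and it does not measure variation among mice.

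Chad had 49 counts in replicate 1 and 99 in replicate 2, a log2 ratio of 0.85 with a 95% counting interval of 0.36 to 1.39 and an exact binomial adjusted p of 0.00412. Bgn had 492 and 737 counts, a log2 ratio of 0.43 (interval 0.27 to 0.60, exact binomial adjusted p = 3.90e-06). Fmod had 847 and 1258 counts, a log2 ratio of 0.42 (interval 0.29 to 0.55, exact binomial adjusted p = 1.14e-09). These 3 were called higher in replicate 2 under all 4 scalings and in the second quantification.

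Dcn, with 2956 and 3569 counts, differed by a log2 ratio of 0.12 (interval 0.05 to 0.19, exact binomial adjusted p = 0.00546). This was the smallest called difference. Scaled by the spike-in RNA, the ratio of Dcn turned to -0.028 and was not called (exact binomial adjusted p = 0.587). Ogn went the other way, with 584 and 555 counts and a log2 ratio of -0.22 (interval -0.39 to -0.05, exact binomial adjusted p = 0.0434). Scaled by total counts, Ogn was at -0.11 and was not called (exact binomial adjusted p = 0.359), and with no minimum count it was not called either (adjusted p = 0.0641).

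The other 5 genes were not called. Podn was at a log2 ratio of 0.15, Prelp at 0.13, Omd at -0.06, Aspn at -0.09 and Lum at -0.17, each with a counting interval that included 0. The interval of Omd, from -1.14 to 1.02, shows that a 2-fold difference in either direction was not detectable at its depth. The 3 chromosome 13 members all had ratios below 0 with TMM, although only Ogn was called. With total counts the ratios of Omd and Aspn turned to 0.047 and 0.021, and Omd was at 0.19 in the second quantification. Ecm2, which lies in the same run, went the other way at 0.47 and was called (exact binomial adjusted p = 0.0159). On chromosome 10, Dcn and Lum had ratios of opposite sign with TMM, although the interval of Lum included 0. With spike-ins both were below 0, Dcn at -0.028 and Lum at -0.32.

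Scaling moved all genes together. Relative to TMM, total counts shifted the median log2 ratio of all genes by 0.11 and spike-ins by -0.15. Total counts also gave 5 called SLRP genes (30.9% of all genes tested), with Prelp in place of Ogn. Spike-ins gave 5 as well (35.6%), with Lum in place of Dcn. With an assumed biological coefficient of variation of 0.1 in the edgeR exact test, 0 of the 10 were called (2.06% of all genes tested), and Chad was the 1 gene with an unadjusted p under 0.05. The median log2 ratio of the 10 genes was 0.12 with TMM, beside 0.01 for all genes tested, and -0.025 with spike-ins, where the median of all genes tested was -0.14. The median of the 10 genes lay 0.12 above that of all genes under each of the 4 scalings. Since a scaling shifts all genes alike, this gap could hardly change among them. In the second quantification the gap was 0.17. DESeq2 size factors and the second quantification each called the 5 genes that TMM called (21.7% of all genes tested with the first and 21% with the second), no minimum called 4 (13.1%), and a minimum mean of 100 counts called 4 of the 8 genes that reached it (28.1%).

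**Figure D3:**
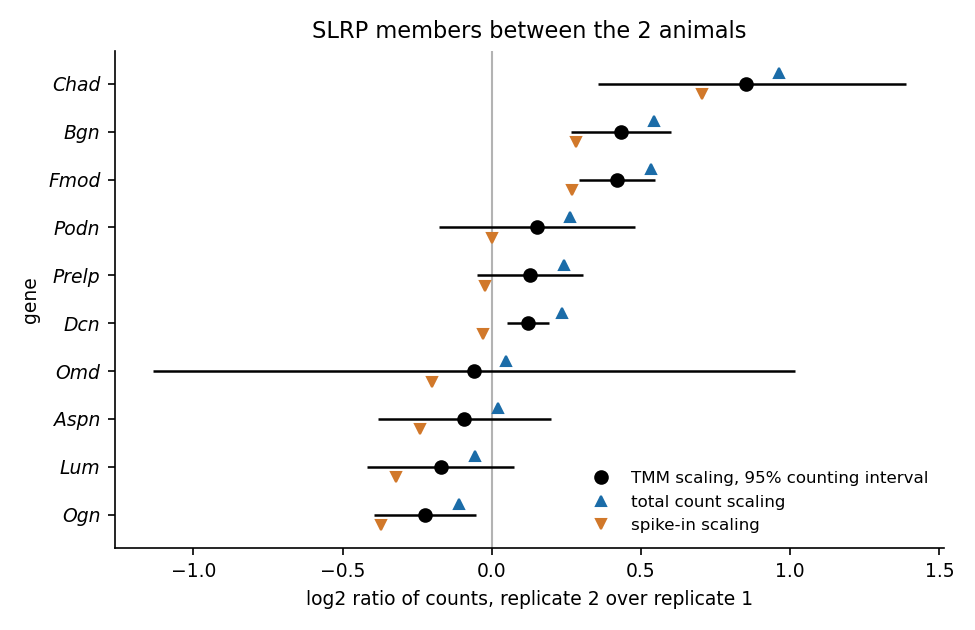
Log2 ratio of counts, replicate 2 over replicate 1, for each SLRP gene with TMM scaling (circle, line for the 95% counting interval), total counts and spike-ins (triangles). Chad, Bgn, Fmod and Podn lie above 0 under all 3 scalings shown, with Podn only at 0.0015 with spike-ins. Lum and Ogn lie below 0 under all 3, while Dcn, Prelp, Omd and Aspn change sign.

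Transcripts were compared between the 2 quantifications, the first with RSEM column names and the second with kallisto column names. For Fmod, Lum, Ogn and Chad a single transcript held over 99% of the gene in both animals and both quantifications, and 3 of these have only 1 annotated transcript. Prelp-201 held 100% of Prelp in both animals in the first quantification, and 100% and 94.0% in the second, where Prelp-202 took 6.03% in replicate 2. The transcript with the largest mean share over the animals was the same in both quantifications for 7 of the 10 genes. The exceptions were Dcn, Omd and Podn.

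Dcn was divided between a pair of transcripts with the same coding part of 1062 bases. Dcn-201 and Dcn-202 share 7 of 8 exons and differ in an untranslated first exon of 181 bases, at 97479609-97479789 and 97482367-97482547 on chromosome 10, which makes up 10.3% of each transcript. In the first quantification Dcn-201 held 60.6% and 55.7% of the gene and Dcn-202 held 39.2% and 42.9%. In the second, Dcn-202 was the larger at 58.5% and 60.7%, with Dcn-201 at 41.3% and 37.7%. The animals were close within each quantification, and the order of the transcripts turned between quantifications, so these files do not tell which first exon was used more.

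Bgn-201, the main coding transcript of biglycan, held 86.9% and 73.4% in the first quantification and 87.5% and 92.8% in the second. The rest was mostly Bgn-208, a short noncoding transcript of 548 bases, at 12.4% and 23.3% in the first quantification and 8.36% and 4.46% in the second. The TPM of Bgn follows this division, since its effective length was 2088 bases in replicate 1 and 1842 in replicate 2. The TPM of Bgn was accordingly 1.499 times higher in replicate 2 in the first quantification and 1.201 times higher in the second, beside 1.35 times for its scaled counts.

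Podn was spread over several transcripts. Podn-201 held 39.4% in replicate 1 and 0.00% in replicate 2 in the first quantification, and 33.9% and 0.901% in the second, so both quantifications placed it in replicate 1 only or nearly so. The TPM of Podn was 1.34 times higher in replicate 2 in the first quantification and 1.95 times higher in the second. Its scaled counts were 1.11 times higher and were not called different. The effective length of Podn in the first quantification was 2648 bases in replicate 1 and 2145 in replicate 2. In the second, Podn-204, a noncoding transcript of 358 bases, held 4.08% and 34.1% of the TPM on 0.267 and 5.16 estimated counts. Aspn-201 held 100% of Aspn in the first quantification but 69.0% and 58.8% in the second, where Aspn-202 took the rest. Omd-201 held 72.2% and 42.1% in the first quantification, from 16 and 17 counts for the whole gene. It held 59.8% and 5.13% in the second, where Omd-201 had 8.97 and 0.769 estimated counts. By TPM in each animal taken alone, both quantifications gave the same larger Omd transcript, Omd-201 in replicate 1 and Omd-202 in replicate 2. By estimated counts in the second, Omd-202 was slightly the larger in replicate 1, at 9.24 beside 8.97 for Omd-201. Both quantifications drew on the same few reads, so their agreement does not show a difference between the animals.

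**Figure D4:**
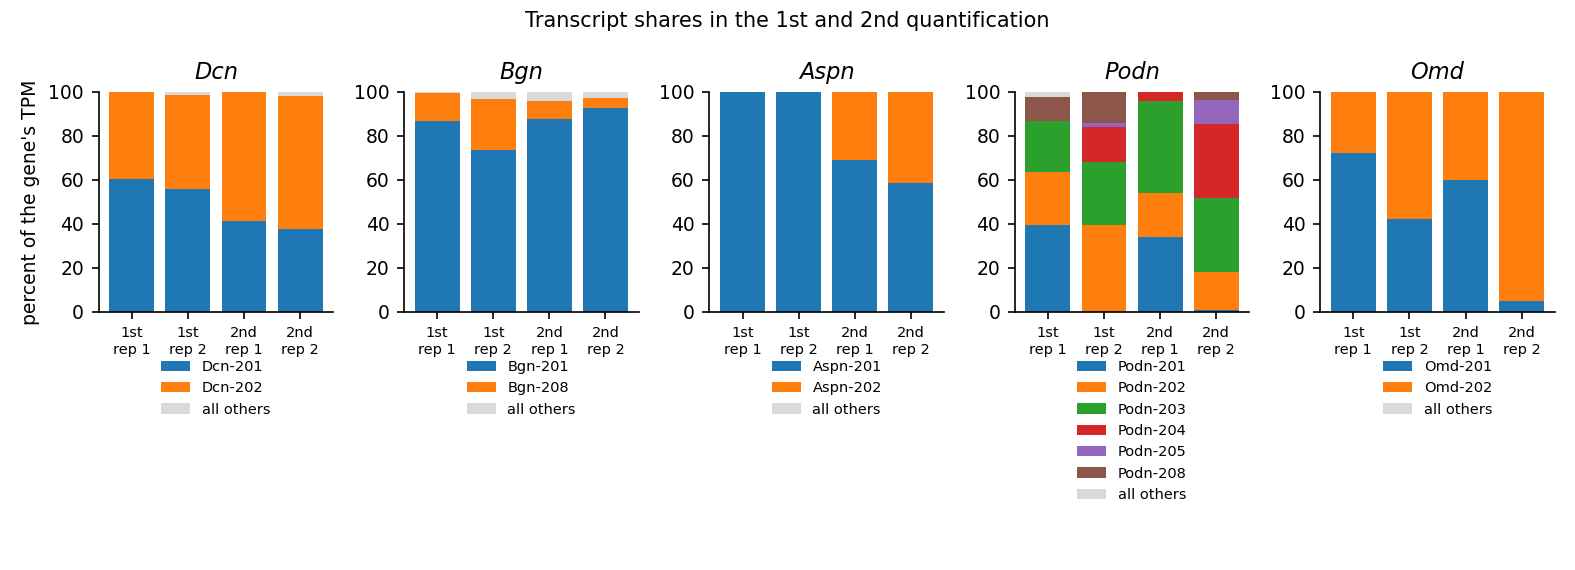
Percent of each gene's TPM held by its transcripts in the 1st and 2nd quantification for both animals, for 5 genes. Prelp, also divided in the 2nd quantification, and the 4 genes with a single transcript are not drawn. Dcn-201 is the larger Dcn transcript in the 1st quantification (60.6% and 55.7%) and the smaller in the 2nd (41.3% and 37.7%).

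The collagens that SLRPs bind and the genes of related pathways were measured beside them. The counts of called genes below stand against shares over all genes tested of 10.7% with more counts in replicate 2 and 10.8% with more in replicate 1. The 11 fibrillar collagen chains summed to 73.1 ± 1.15 TPM (SD, n = 2), so the 10 SLRP genes together had 1.70 ± 0.151 times their TPM. Dcn alone was 3.54 ± 0.521 times Col1a1, the collagen I chain at 22.2 and 19.3 TPM. Col1a2 was measured at 20.6 and 22.3 TPM and Col3a1 at 19.03 and 19.91 TPM. Of the 11 chains 1 was called with more counts in replicate 2 and 2 with more in replicate 1, with a median log2 ratio of -0.11, beside 0.12 for the SLRP genes and 0.01 for all genes. With total counts the collagen median turned to 0.0068.

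Among 11 collagens and matrix proteins at the fibril surface, 3 were called with more counts in replicate 2 and 2 with more in replicate 1. Thrombospondin 4 (Thbs4), a matrix protein of tendon and muscle, was the highest at 21.8 and 21.6 TPM, followed by tenascin X (Tnxb) at 7.49 and 8.96 and fibronectin (Fn1) at 8.17 and 7.43. Elastin (Eln) had 383 and 239 counts, 1.78 times more in replicate 1 (exact binomial adjusted p = 4.83e-11).

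The sugar chains of SLRPs are built by several groups of enzymes. Of 6 linkage enzymes 1 was called with more counts in replicate 2 and 2 with more in replicate 1. The xylose kinase Fam20b had 20.9 and 18.7 TPM, B3gat3 had 15.2 and 17.8, and Xylt1, a xylosyltransferase that starts the chain, had 4.10 and 4.08. The other xylosyltransferase, Xylt2, was the 1 called with more counts in replicate 2, at 81 and 138 counts, or 1.53 times by scaled counts (exact binomial adjusted p = 0.0142). Its TPM was 0.96 and 2.48, a wider gap than in counts, and with spike-ins it was not called (exact binomial adjusted p = 0.0568). Of 14 tested chondroitin and dermatan sulfate enzymes 5 were called with more counts in replicate 2 and 1 with more in replicate 1, with a median log2 ratio of 0.38. Csgalnact2, which begins chondroitin sulfate, was the highest at 16.9 and 15.9 TPM, and the sulfotransferase Chst15 was 1.62 times higher in replicate 2 (74 and 134 counts, exact binomial adjusted p = 0.00500). The 5 keratan sulfate enzymes summed to 1.65 TPM in each animal, with B4galt4 the highest at 1.16 and 0.95 TPM, and 1 of 3 tested was called higher in replicate 2. Of 5 genes for sulfate supply and tyrosine sulfation, Papss2, which makes the sulfate donor, was the 1 called, at 1.60 times higher in replicate 2 (80 and 143 counts, exact binomial adjusted p = 0.00472).

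Of 15 tested growth factors and receptors that SLRPs bind, 5 were called with more counts in replicate 2 and 3 with more in replicate 1. Myostatin (Mstn), the muscle growth inhibitor, had 25.9 and 28.1 TPM, Tgfb3 had 24.11 and 20.98, and the endocytic receptor Lrp1 had 10.54 and 12. Ccn2, a matrix-bound factor also called connective tissue growth factor, had 361 and 234 counts and was 1.71 times higher in replicate 1 (exact binomial adjusted p = 2.48e-09). Of 12 tested proteases and inhibitors 6 were called with more counts in replicate 2, beside 10.7% of all genes tested, and 0 with more in replicate 1, with a median log2 ratio of 0.26. The inhibitor Timp3 was the highest, at 21.98 and 35.07 TPM, followed by Timp2 at 18.4 and 24.1 and the protease Htra1 at 16.2 and 17.1. Mmp14 and Adamts5, proteases that cut matrix proteoglycans, were 1.73 and 1.52 times higher in replicate 2.

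Markers of the cell types in the muscle were compared in the same way, against the same 10.7% and 10.8% of all genes tested. The 10 fibroblast markers summed to 78.8 and 85.7 TPM, with 2 called with more counts in replicate 2 and 1 (Mfap5) with more in replicate 1. Smoc2 was the highest of them at 19.6 and 22.8 TPM. The 7 tendon cell markers summed to 30.74 and 31.96 TPM, mostly Thbs4, and the 1 called was Comp at 66 and 119 counts. The tendon regulator Scx had 76 and 114 counts and was not called.

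Markers of vessels and fat were also counted. Mural cell markers were called higher in replicate 2 for 7 of 8 genes, beside 10.7% of all genes tested. They summed to 165 and 196 TPM, and Myh11, the furthest apart of the 8, was 2.13 times higher. Abcc9, the 1 not called, made up 63.3 and 60.65 TPM of those sums, with a log2 ratio of -0.014. Adipocyte markers were called higher in replicate 2 for 5 of 6 genes and summed to 72.96 and 90.27 TPM. Endothelial markers were called higher in replicate 2 for 3 of 6 genes and summed to 35.7 and 42.4 TPM. All 5 muscle fibre markers were called higher in replicate 2 as well, with a median log2 ratio of 0.13 that turned to -0.015 with spike-ins. Of 4 tested macrophage markers 0 were called by the exact binomial test, and 1 had an unadjusted p under 0.05. By the same test 1 of 4 Schwann cell markers was called higher in replicate 2. Bgn, Fmod and Chad were higher in the same animal, and the part of any of these cell types in that difference was not tested.

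Cartilage and bone are the tissues from which Chad and Omd are best known, and markers of both were counted. Of the 7 cartilage markers, which summed to 2.16 and 3.06 TPM, Sox9 had 91 and 77 counts, Prg4 49 and 75, Col2a1 12 and 11, and Col9a1 3 and 13. Matn3 had 4 and 2, aggrecan (Acan) had 3 and 2, and Hapln1 had 0 and 1. Cartilage structural genes were thus low, while Sox9 and Prg4 had counts in the range of Chad, at 49 and 99. By TPM, which corrects for length, Sox9 (0.90 and 0.67) and Prg4 (0.94 and 2.01) were below Chad (1.23 and 2.20) in both animals. The 6 bone markers summed to 7.48 and 6.34 TPM, mostly Alpl. Alpl had 333 and 232 counts, Dmp1 34 and 21, and Phex 21 and 31. Bglap had 0 and 2, and Ibsp and Sp7 had 0 in both libraries. Alpl, Dmp1 and Phex thus had at least as many counts as Omd, at 16 and 17. By TPM, Alpl (6.74 and 5.56) was above Omd (0.39 and 0.32) in both animals and Phex (0.23 and 0.29) was below Omd. Dmp1 (0.51 and 0.28) was above Omd in replicate 1 only. The part of either tissue in the levels of Chad and Omd was not tested. Of 3 skin markers Krt5 and Krt14 had 0 counts in both libraries, and Krt10 had 24 and 12.

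**Figure D5:**
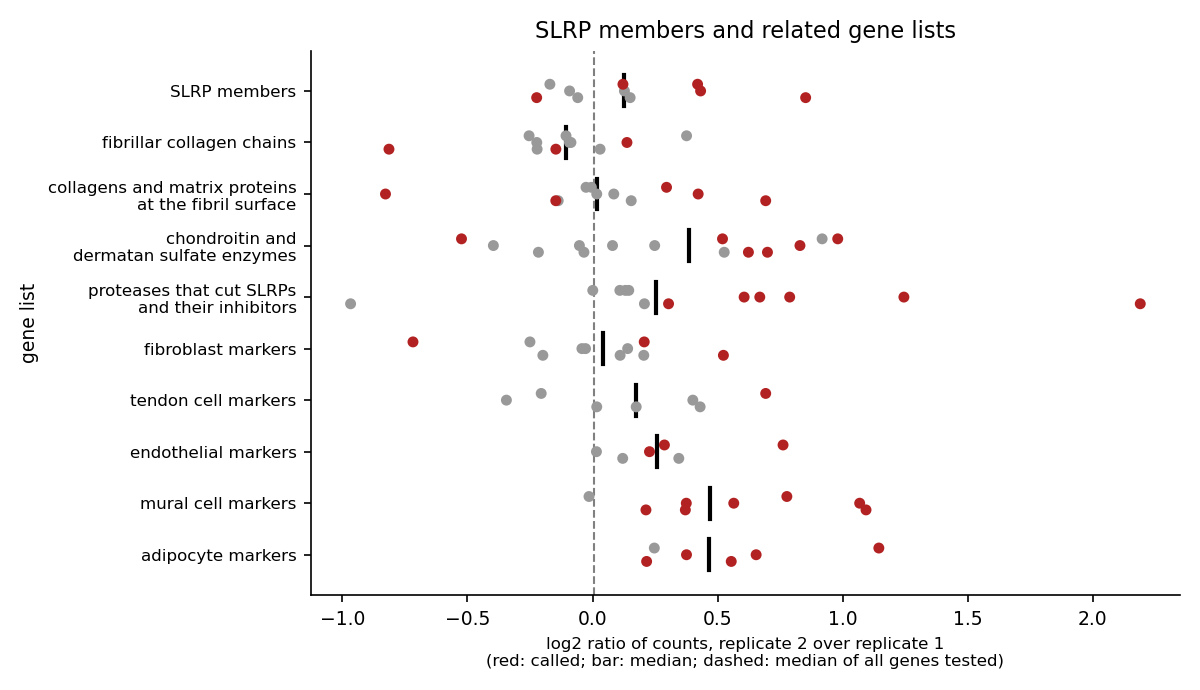
Log2 ratio of counts, replicate 2 over replicate 1, for each tested gene of the SLRP family and 9 related lists, with called genes in red, a bar at each list's median and a dashed line at the median of all genes tested. The SLRP genes run from -0.22 (Ogn) to 0.85 (Chad) with a median of 0.12, and the mural cell and adipocyte lists have higher medians of 0.47 and 0.46.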

How the data were processed

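Total RNA of gastrocnemius from 2 mice was sequenced in 1 library each, from 300 ng of RNA with a directional kit, per the labels. The authors deposited expected counts (unnormalized estimates of the reads of each gene or transcript), TPM values scaled by length and library, and the percent of each gene held by each transcript, per the file headers. A second deposited transcript table holds estimated counts and TPM. All use mm10 with GENCODE M21, per the deposited README. The aligner, the quantifier versions and the strand setting are not given in the sources used here, so overlapping genes may share reads.

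Expected counts were rounded. Library sizes left out 96 spike-ins and 26249 further entries without a gene, which held 85 and 76 counts. Libraries were scaled by TMM (edgeR 4.0.16, R 4.3.3), and log2 ratios used a prior of 1 count. Counts were compared with an exact conditional binomial test (scipy 1.17.1). A quasi-likelihood fit was not used, since 1 library per animal leaves no residual degrees of freedom. The test was tried on simulated counts drawn with counting error only, which is the error it assumes. That simulation held no variation between animals, so it does not show how the test behaves on the real libraries. The libraries are not copies of each other, with a chi-square of 94.4 for each degree of freedom. Intervals cover counting error only. Alternatives used DESeq2 1.42.0 size factors, total counts, spike-ins, priors of 5 counts, other count minimums, an assumed variation and the second quantification.

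Beside the 10 members, up to 3 genes of each of 20 lists with the highest TPM were eligible to be named, and any further gene 1.5-fold apart at a mean of 100 or more counts. Genes outside that rule (such as Comp, Podnl1, Epyc, Optc, Acan, Hapln1, Col9a1, Matn3, Bglap, Ibsp and Sp7) were chosen after their values were seen. The members and lists were chosen with earlier results of these data known. The symbols Ctgf and Wisp1 were matched as Ccn2 and Ccn4. Promoter windows are from RefSeq.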

Additional observations from a re-analysis of the deposited data

How the results depend on the processing

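The count of called SLRP genes was 5 with DESeq2 size factors, total counts, spike-ins and the second quantification, and 4 with no minimum or a minimum mean of 100 counts. It was 0 with an assumed biological variation of 0.1, where no replicate spread was available to estimate it. With spike-ins the median log2 ratio of the 10 genes turned to -0.025, Dcn to -0.028 and Prelp to -0.022, while the median of all genes tested was -0.14. With total counts, where the median of all genes was 0.12, Omd turned to 0.047 and Aspn to 0.021, and Omd was at 0.19 in the second quantification. The 4 scalings shift all genes alike, so the gap of 0.12 between the median of the 10 genes and that of all genes could hardly change. In the second quantification this gap was 0.17. DESeq2 size factors, a prior of 5 counts and ratios of TPM turned no member. In alternatives chosen after seeing the data, spike-ins turned the list medians of fibril surface proteins (-0.13), sulfate supply (-0.035), growth factors and receptors (-0.060), fibroblast (-0.11), macrophage (-0.081) and muscle fibre markers (-0.015), and total counts turned those of fibrillar collagens (0.0068) and linkage enzymes (0.028). The summed TPM of the 10 genes was 286 over nuclear protein-coding genes only, 103 in the second quantification, and 118 to 131 with an animal left out. The share of Dcn was 48.4% by counts, which are not per length, and 57.9% to 59.9% with an animal left out. No paired analysis was possible because there is 1 group. With 2 animals, variation among mice could not be estimated, and for Omd and Chad the depth limits what could be detected.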
